A study of Mus with 8 samples.

Results

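The 9 genes described here encode kinases of the mitogen-activated protein kinase (MAPK) cascades. They were chosen by symbol, and each had 1 probe set of that exact symbol among the 21154 symbols tested on the arrays. They comprise a MAPK kinase kinase (Map3k8), 4 MAPK kinases (Map2k1, Map2k2, Map2k3 and Map2k6), 3 MAP kinases (Mapk3, Mapk8 and Mapk14) and a kinase that MAP kinases activate (Mapkapk2). The cells were RAW264, a mouse macrophage-like line, and BTEE is an ethanol extract of the green microalga Botryococcus terribilis. BTEE cells received 0.2 mg/mL of the extract for 24 h and then 1 ng/mL lipopolysaccharide (LPS) for 17 or 6 h. LPS is a bacterial cell wall component that activates macrophages. Control cells received the same LPS for the same times with no pre-treatment, and a solvent control is not named in the labels. The highest BTEE concentration for which the paper states no significant cytotoxicity was lower than 0.2 mg/mL. Each of the 4 groups had 2 Clariom S mouse arrays, and since all 8 arrays came from LPS-treated cells of 1 line, none of them gives the level before LPS. Values are log2 signals, in which a difference of 1 is a doubling. Whether the 2 arrays of a group stand for separate cultures is not stated in the labels. The p-values therefore rest on the spread between the arrays at hand, which may be technical.

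In a MAPK cascade, a MAPK kinase kinase phosphorylates a MAPK kinase, which in turn phosphorylates a MAP kinase. In macrophages, LPS acts through Toll-like receptor 4 and starts the ERK, JNK and p38 branches of these cascades, which are known to control the transcription, stability and translation of cytokine mRNAs. These kinases are activated by being phosphorylated, which arrays do not measure. The values below are mRNA levels, and in RNA from a whole culture fewer cells with an mRNA and less of it per cell cannot be told apart.

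Median log2 signals of the arrays lay between 5.25 and 5.28, and r between the arrays of 1 group was 0.9984 to 0.9987 over the probe sets. The 10 macrophage markers had a list mean of 15.78 in BTEE cells and 15.78 to 15.79 in control cells at 17 h. At 6 h it was 15.47 to 15.49 in BTEE cells and 15.75 to 15.77 in control cells. Of these markers, 1 rose with BTEE at 17 h, the Fc receptor gene Fcgr1 (0.26, adjusted p = 0.0351, limma), and 2 fell, the integrin gene Itgam (-0.42, adjusted p = 0.0064) and the transcription factor gene Spi1 (-0.40, adjusted p = 0.0065). At 6 h 4 fell, Tyrobp (-0.71, adjusted p = 0.0012), Fcgr1 (-0.61, adjusted p = 0.0021), Adgre1 (-0.51, adjusted p = 0.0033) and Itgam (-0.44, adjusted p = 0.0050). Of all symbols, 28.5% passed the same test at 17 h and 30.2% at 6 h, in either direction. Among symbols with a mean log2 signal of 6 or more, which all 10 macrophage markers reached, 38.7% and 36.8% did. The counts of macrophage markers were near those shares. The list means of the B cell, T cell, fibroblast and neutrophil markers lay between 3.69 and 4.88 on all arrays. That of the 3 fibroblast markers was 4.22 to 4.28 in BTEE cells and 4.68 to 4.74 in control cells at 6 h, where the collagen gene Col1a1 fell by 1.09 (adjusted p = 0.0027, limma). Of the 5 neutrophil markers, S100a8 fell by 1.11 (adjusted p = 0.0018) and Mpo rose by 0.54 (adjusted p = 0.0373) at 6 h. Of the 3 T cell markers, Cd4 fell by 0.33 at 17 h (adjusted p = 0.0283) and Cd3g rose by 0.70 at 6 h (adjusted p = 0.0147). Cd4 was above its list mean, with log2 signals between 7.38 and 8.07, and Cd3g lay between 2.61 and 3.57. The part of these markers in the results on the kinases was not tested. Of the reference genes Gapdh and Actb, 0 passed the test at 17 h and 0 at 6 h, with the smallest adjusted p at 0.3102, for Actb at 17 h, and 0 had an unadjusted p under 0.05.

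To examine which of the 9 kinases differed at the mRNA level after BTEE, BTEE cells were compared with control cells at each time (limma, Benjamini-Hochberg adjustment over all 21154 symbols, threshold 0.05). At 17 h, 2 of the 9 rose (Map2k6 and Mapkapk2), 2 fell (Map2k3 and Mapk8) and 5 did not pass, while 14.9% of all symbols rose and 13.6% fell. At 6 h, 1 of the 9 rose (Map2k6), 3 fell (Map2k1, Map2k3 and Mapkapk2) and 5 did not pass, while 14.5% of all symbols rose and 15.7% fell. In either direction 28.5% of all symbols passed at 17 h and 30.2% at 6 h, and among the 9387 brighter symbols (mean log2 signal 6 or more, which 8 of the 9 kinases reached) 38.7% and 36.8% did, so that 4 of 9 was near the background. Without BTEE array 1 of 17 h the count at 17 h was 2, and without BTEE array 1 or control array 1 of 6 h the count at 6 h was 2. As a median, the log2 fold change of the 9 was 0.005 at 17 h and -0.06 at 6 h, against medians over all symbols of 0.005 and -0.005. By the rule that the methods use for differentially expressed genes (DEGs), a fold over 1.5 with an unadjusted p under 0.05, 1 of the 9 was a DEG at 17 h, where 8.79% of all symbols were, and 2 at 6 h, where 10.4% were. The methods also set a threshold for detection above background, which was not applied here. The BTEE effects at the 2 times differed for 2 of the 9, Mapkapk2 and Mapk8, while 31.4% of all symbols passed that test.

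**Figure D1:**
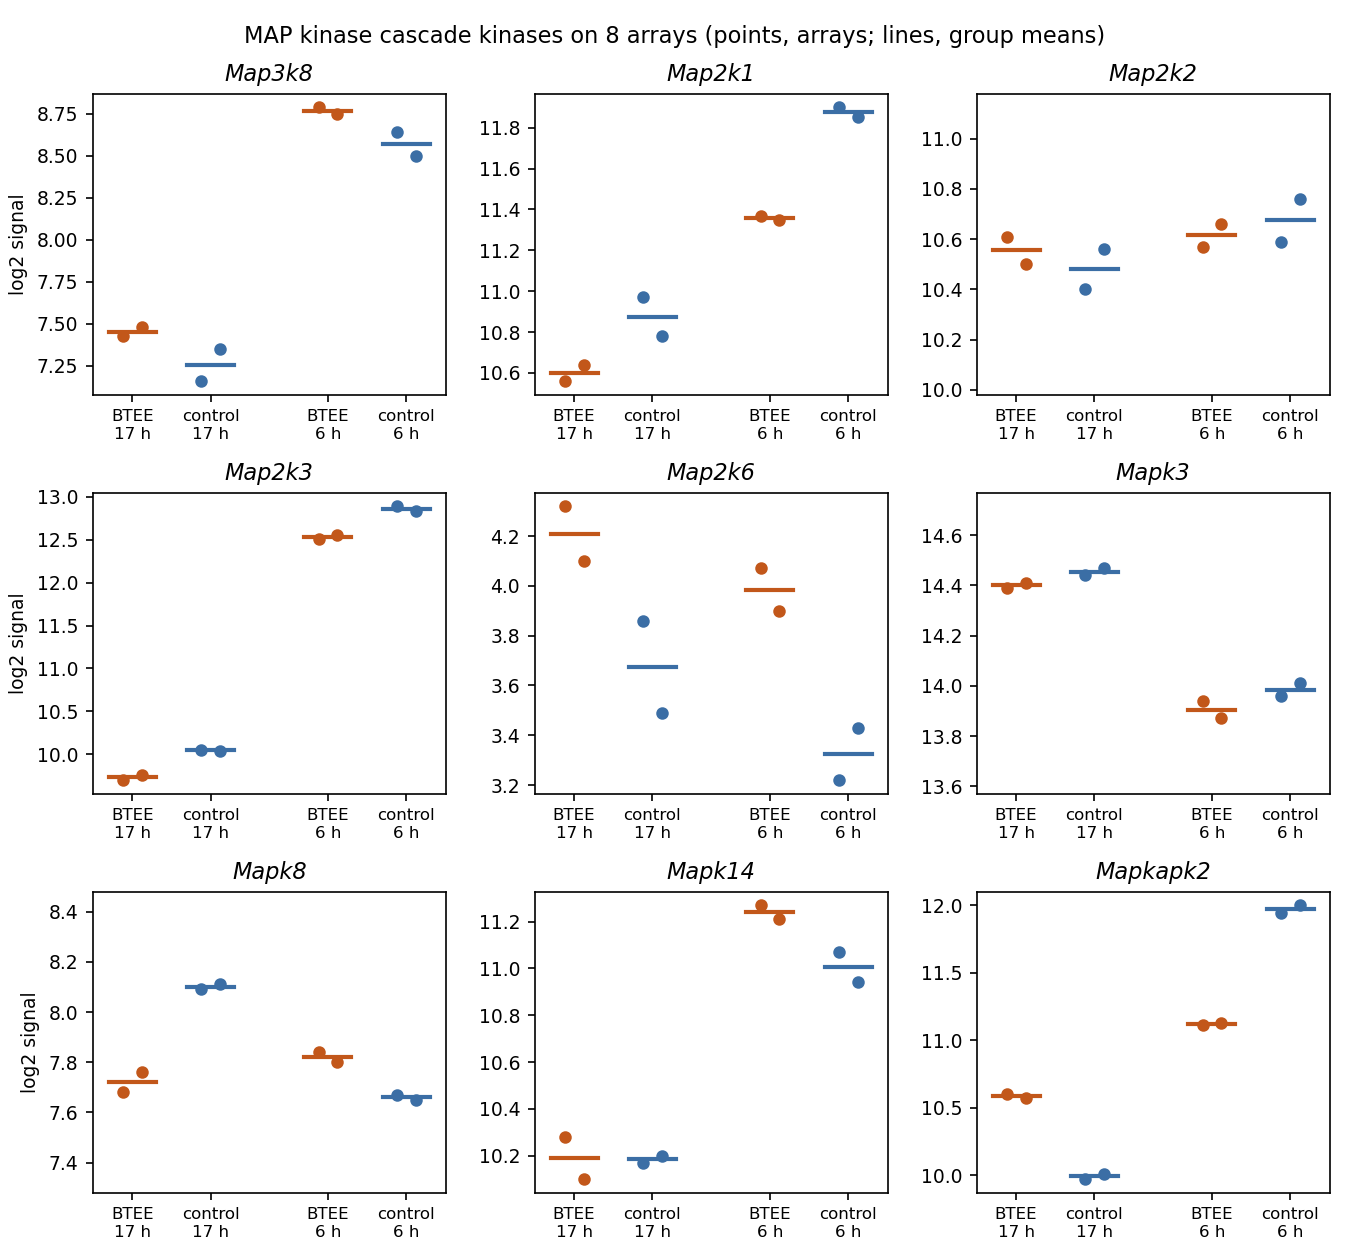
Log2 signal of each kinase (vertical axes, with a scale of its own in each panel) on the 8 arrays in the 4 groups; points are arrays and lines are the means of 2 arrays. Mapkapk2 lay between 10.57 and 10.60 in BTEE cells and between 9.97 and 10.01 in control cells at 17 h, and between 11.11 and 11.13 in BTEE cells and between 11.94 and 12 in control cells at 6 h.

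Map3k8 (also called Tpl2 or Cot) is the MAPK kinase kinase that links Toll-like receptors to the ERK branch in macrophages. At 17 h it had log2 signals of 7.43 and 7.48 in BTEE cells and 7.16 and 7.35 in control cells. After 6 h of LPS, BTEE cells had 8.79 and 8.75 and control cells had 8.64 and 8.50. Both BTEE arrays were above both control arrays at each time, with the nearest BTEE and control arrays closer to each other than the control arrays were. The log2 fold change was 0.20 at 17 h (95% confidence interval -0.02 to 0.42, adjusted p = 0.1447, limma) and 0.20 at 6 h (-0.02 to 0.42, adjusted p = 0.1392), so neither passed the test, and the difference between them was 0 (-0.30 to 0.30). Map3k8 protein is held in a complex with the NF-kappaB precursor encoded by Nfkb1 and with the protein encoded by Tnip2. Nfkb1 did not pass at 17 h (-0.12, adjusted p = 0.2385, limma). At 6 h Nfkb1 had log2 signals of 14.17 and 14.15 in BTEE cells and 14.35 and 14.42 in control cells, and it fell by 0.23 on the log2 scale (adjusted p = 0.0483). Tnip2 rose by 0.53 at 17 h (adjusted p = 0.0158, limma), with 8.76 and 8.63 in BTEE cells and 8.31 and 8.02 in control cells. At 6 h Tnip2 did not pass (0.16, adjusted p = 0.3271), and neither did the difference between both effects (0.37, adjusted p = 0.1252).

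Map2k1 and Map2k2 encode MEK1 and MEK2, the kinases that phosphorylate the MAP kinases of the ERK branch. The genes lie at chr9:64185769-64253605 and chr10:81105913-81124697 (GRCm38.p6). Map2k1 had log2 signals of 10.56 and 10.64 in BTEE cells and 10.97 and 10.78 in control cells at 17 h. For 6 h the values were 11.37 and 11.35 in BTEE cells and 11.90 and 11.85 in control cells. Both BTEE arrays were below both control arrays at each time. At 17 h the log2 fold change of Map2k1 was -0.28 (SE 0.09) and did not pass, with an adjusted p of 0.0509 (limma). At 6 h Map2k1 fell by 0.52 on the log2 scale with BTEE (SE 0.09, a 1.43-fold lower signal, adjusted p = 0.0060, limma). Under 4 of 15 alternatives that use an adjusted p it also passed at 17 h, with adjusted p-values from 0.0072 to 0.2282 over the 15. The difference between the 2 effects was 0.24 (95% confidence interval -0.05 to 0.53, adjusted p = 0.1709), so the BTEE effect on Map2k1 was not shown to differ between the times.

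Map2k2 had 10.61 and 10.50 in BTEE cells and 10.40 and 10.56 in control cells at 17 h. The signals at 6 h were 10.57 and 10.66 in BTEE cells and 10.59 and 10.76 in control cells. The arrays of the groups overlapped at both times. The log2 fold change was 0.08 at 17 h (95% confidence interval -0.15 to 0.30, adjusted p = 0.5939, limma) and -0.06 at 6 h (-0.29 to 0.17, adjusted p = 0.6691). Among the 9 kinases, Map2k2 had the narrowest range over the 4 group means, 0.20 on the log2 scale.

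Map2k3 and Map2k6 encode MKK3 and MKK6, which activate p38. Both genes are on chromosome 11, at chr11:60932054-60952811 and chr11:110399102-110525522. Map2k3 had log2 signals of 9.70 and 9.76 in BTEE cells and 10.05 and 10.04 in control cells at 17 h. After 6 h of LPS, BTEE cells had 12.51 and 12.55 and control cells had 12.89 and 12.83. All 4 BTEE arrays were below the control arrays of their time, by several times the distance between arrays of a group. Map2k3 fell by 0.32 at 17 h (SE 0.07, a 1.24-fold lower signal, adjusted p = 0.0163, limma) and by 0.33 at 6 h (SE 0.07, a 1.26-fold lower signal, adjusted p = 0.0135). The difference between these effects was 0.02 (95% confidence interval -0.22 to 0.25, adjusted p = 0.9205). Leaving out a BTEE or control array numbered 1 at 6 h ended the call at 6 h, with adjusted p-values of 0.0646 and 0.0628. The call at 17 h ended without BTEE array 1 (0.0757) or without control array 1 (0.0738) or 2 (0.0690), while the log2 fold change stayed between -0.35 and -0.29 at 17 h and between -0.36 and -0.30 at 6 h over the 15 alternatives.

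Map2k6 was the dimmest of the 9 and the only one with a mean under 6. After 17 h of LPS, BTEE cells had log2 signals of 4.32 and 4.10 and control cells had 3.86 and 3.49. For 6 h the values were 4.07 and 3.90 in BTEE cells and 3.22 and 3.43 in control cells. BTEE arrays were above the control arrays of their time, and the control arrays of 17 h were farther apart (SD 0.26) than those of any group for the other kinases. Map2k6 rose by 0.54 at 17 h (SE 0.15, a 1.45-fold higher signal, adjusted p = 0.0362, limma) and by 0.66 at 6 h (SE 0.15, a 1.58-fold higher signal, adjusted p = 0.0173). Its mean over the 8 arrays, 3.80, was near the median of 3.62 among 1439 sensory receptor genes, which encode odorant and taste receptors and the like, and of which 17.4% were called at 17 h and 21.1% at 6 h. The call at 17 h ended without BTEE array 1 (0.43, adjusted p = 0.1576) or 2 (0.65, adjusted p = 0.0606) and without control array 2 (0.35, adjusted p = 0.1663), and that at 6 h without BTEE array 1 (adjusted p = 0.0863) or control array 1 (adjusted p = 0.0823).

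Mapk3 encodes ERK1, at chr7:126759626-126765816. At 17 h it had log2 signals of 14.39 and 14.41 in BTEE cells and 14.44 and 14.47 in control cells. The signals at 6 h were 13.94 and 13.87 in BTEE cells and 13.96 and 14.01 in control cells. The BTEE arrays were below the control arrays by a few hundredths, about as far as arrays of a group lay from each other. The log2 fold change was -0.06 at 17 h (95% confidence interval -0.22 to 0.11, adjusted p = 0.5825, limma) and -0.08 at 6 h (-0.24 to 0.08, adjusted p = 0.4134).

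Mapk8 encodes JNK1, the stress-activated kinase that phosphorylates c-Jun, at chr14:33377898-33447353. After 17 h of LPS, BTEE cells had log2 signals of 7.68 and 7.76 and control cells had 8.09 and 8.11. After 6 h of LPS, BTEE cells had 7.84 and 7.80 and control cells had 7.67 and 7.65. BTEE arrays were below both control arrays at 17 h and above both at 6 h. Mapk8 fell by 0.38 at 17 h (SE 0.07, a 1.30-fold lower signal, adjusted p = 0.0086, limma). At 6 h the log2 fold change was 0.16 (95% confidence interval -0.003 to 0.32, adjusted p = 0.1214) and did not pass. The difference between the 2 effects was -0.54 (SE 0.10, adjusted p = 0.0077, limma), and it passed in all 14 alternatives other than the DEG rule, with values between -0.60 and -0.50.

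The JNK2 gene Mapk9 was measured as a paralog of Mapk8. It had 11.85 and 11.88 in BTEE cells and 12.06 and 12.15 in control cells at 17 h, and 12.03 and 11.88 in BTEE cells and 11.82 and 11.78 in control cells at 6 h. Mapk9 passed at neither time (-0.24 at 17 h, adjusted p = 0.0635, and 0.16 at 6 h, adjusted p = 0.1848, limma), while the difference between its effects passed (-0.40, adjusted p = 0.0374). The MAPK kinases that phosphorylate JNK are encoded by Map2k4 and Map2k7. Map2k7 had 10.02 and 10.05 in BTEE cells and 10.52 and 10.62 in control cells at 17 h, where it fell by 0.54 (adjusted p = 0.0040, limma). At 6 h Map2k7 did not pass (-0.08, adjusted p = 0.4878), and its effects differed between the times (-0.46, adjusted p = 0.0184). For Map2k4 the log2 fold change was -0.21 at 17 h (adjusted p = 0.0777) and 0.20 at 6 h (adjusted p = 0.0799), and the difference between them was -0.41 (adjusted p = 0.0256).

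Mapk14 encodes p38 alpha, at chr17:28691342-28748405. At 17 h it had log2 signals of 10.28 and 10.10 in BTEE cells and 10.17 and 10.20 in control cells. For 6 h the values were 11.27 and 11.21 in BTEE cells and 11.07 and 10.94 in control cells. The control arrays lay between the BTEE arrays at 17 h, and both were below the BTEE arrays at 6 h. The log2 fold change was 0.005 at 17 h (95% confidence interval -0.21 to 0.22, adjusted p = 0.9724, limma). At 6 h it was 0.24 (0.02 to 0.45, adjusted p = 0.0865), which passed in 3 of 15 alternatives, with adjusted p-values between 0.0252 and 0.3051 over all of them. The difference between the effects was -0.23 (adjusted p = 0.2021). Of the other p38 genes, Mapk11 passed at neither time (0.14, adjusted p = 0.3080, at 17 h and 0.03, adjusted p = 0.8375, at 6 h). Mapk12 rose by 0.42 at 6 h (adjusted p = 0.0207, limma) and Mapk13 fell by 0.46 at 6 h (adjusted p = 0.0378), both at log2 signals under 5.1 on every array. At 17 h neither passed (-0.06, adjusted p = 0.7126, for Mapk12 and -0.42, adjusted p = 0.0523, for Mapk13).

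Mapkapk2 encodes MK2, a kinase activated by p38 that phosphorylates mRNA-binding proteins, among them tristetraprolin, and so controls the stability and translation of cytokine mRNAs. The gene lies at chr1:131053700-131097871. After 17 h of LPS, BTEE cells had log2 signals of 10.60 and 10.57 and control cells had 9.97 and 10.01. The signals at 6 h were 11.11 and 11.13 in BTEE cells and 11.94 and 12 in control cells. The 2 arrays of each group differed by at most 0.06, and the means of BTEE and control cells were 0.60 and 0.85 apart, with BTEE above control at 17 h and below it at 6 h. Mapkapk2 rose by 0.60 at 17 h (SE 0.07, a 1.51-fold higher signal, adjusted p = 0.0022, limma) and fell by 0.85 at 6 h (SE 0.07, a 1.80-fold lower signal, adjusted p = 8.33e-04). Among all symbols this was the 918th highest log2 fold change at 17 h and the 292nd lowest at 6 h. The difference between the effects was 1.45 (SE 0.10, 95% confidence interval 1.22 to 1.67, adjusted p = 8.52e-04, limma), the 94th highest of all symbols. All alternatives run kept these 3 calls, the DEG rule included, with log2 fold changes between 0.55 and 0.62 at 17 h, between -0.88 and -0.80 at 6 h, and differences between 1.35 and 1.48. The fold at 17 h was just above the 1.5 of the DEG rule. The paralog Mapkapk3, which encodes MK3, passed at neither time (0.07, adjusted p = 0.7367, at 17 h and 0.20, adjusted p = 0.3227, at 6 h) and was dim, with log2 signals between 4.27 and 4.74.

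**Figure D2:**
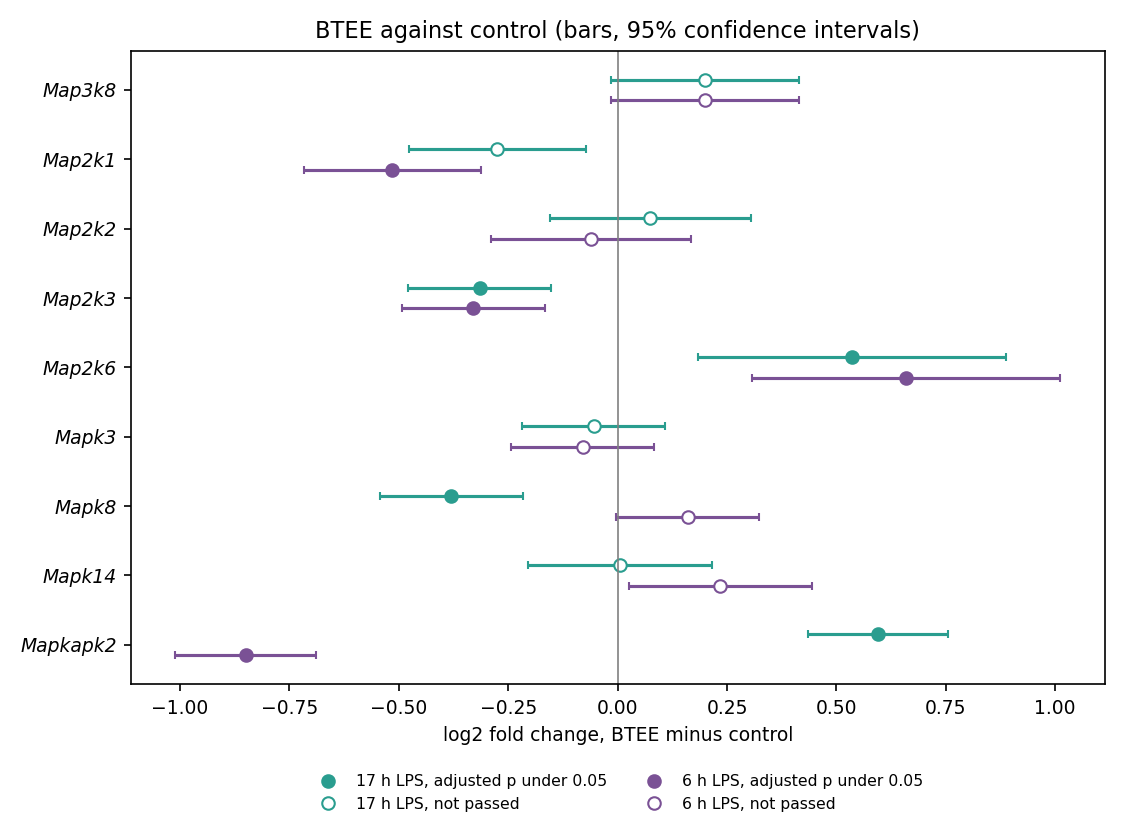
Log2 fold change of BTEE against control (horizontal axis) for the 9 kinases at 17 h and 6 h of LPS; bars are 95% confidence intervals of the limma fit, and filled points have an adjusted p under 0.05. The intervals of Mapkapk2 lie on opposite sides of 0, around 0.60 at 17 h and -0.85 at 6 h, while those of Map2k3 are nearly the same at both times.

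The same 8 arrays also allowed the later time to be compared with the earlier one within BTEE cells and within control cells. In BTEE cells, 1 of the 9 kinases was higher at 17 h than at 6 h (Mapk3), 5 were lower (Map3k8, Map2k1, Map2k3, Mapk14 and Mapkapk2) and 3 did not pass, while 23.6% of all symbols were higher and 24% lower. In control cells, 2 were higher at 17 h (Mapk3 and Mapk8), the same 5 were lower and 2 did not pass, while 25.8% of all symbols were higher and 26.4% lower. Among the 9387 brighter symbols, 70.8% were called in either direction in BTEE cells and 75.5% in control cells, which is near 6 and 7 of the 9 kinases. The median log2 fold change of the 9 kinases was -0.54 in BTEE cells and -0.82 in control cells, against 0 and 0.005 over all symbols. No batch is given for the arrays, and one that followed time cannot be told apart from time.

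The largest of these differences was that of Map2k3, which was 6.96-fold lower at 17 h than at 6 h in BTEE cells (-2.80, SE 0.07, adjusted p = 2.64e-07, limma) and 7.04-fold lower in control cells (-2.82, SE 0.07, adjusted p = 2.06e-07). Map3k8 was 2.49-fold lower at 17 h in both (-1.32, SE 0.09, adjusted p = 2.38e-05 in BTEE cells and 1.85e-05 in control cells). Map2k1 was 1.69-fold lower at 17 h in BTEE cells (-0.76, adjusted p = 2.93e-04, limma) and 2.0-fold lower in control cells (-1.0, adjusted p = 5.61e-05). Mapk14 was 2.07-fold lower in BTEE cells (-1.05, adjusted p = 6.62e-05, limma) and 1.77-fold lower in control cells (-0.82, adjusted p = 1.95e-04). These 4 genes, from the first 3 levels of the cascade, were thus lower at 17 h with BTEE as well as without it. Mapk3 went the other way, 1.41-fold higher at 17 h in BTEE cells (0.50, adjusted p = 8.86e-04, limma) and 1.39-fold higher in control cells (0.47, adjusted p = 9.65e-04).

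Mapkapk2 and Mapk8 were the kinases whose time difference itself differed between BTEE cells and control cells, which is the same contrast as the difference between their BTEE effects. Mapkapk2 was 1.45-fold lower at 17 h than at 6 h in BTEE cells (-0.54, SE 0.07, adjusted p = 5.47e-04, limma) and 3.94-fold lower in control cells (-1.98, SE 0.07, adjusted p = 7.41e-07). Its 4 BTEE arrays lay between the control arrays of 17 h and those of 6 h. Mapk8 did not pass in BTEE cells (-0.10, adjusted p = 0.2762, limma) and was 1.36-fold higher at 17 h in control cells (0.44, SE 0.07, adjusted p = 0.0014). For Map2k2 and Map2k6 neither comparison passed, with -0.06 and 0.23 in BTEE cells and -0.20 and 0.35 in control cells.

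**Figure D3:**
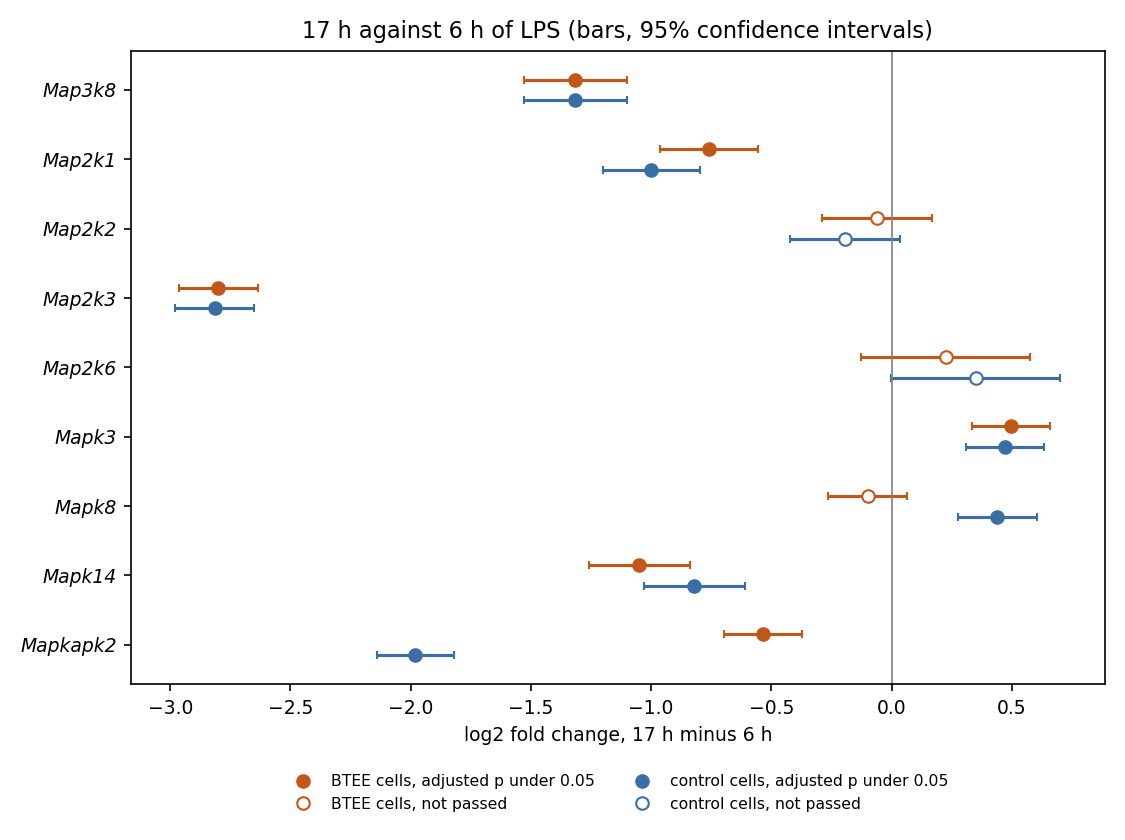
Log2 fold change of 17 h against 6 h of LPS (horizontal axis) for the 9 kinases in BTEE cells and control cells; bars are 95% confidence intervals of the limma fit, and filled points have an adjusted p under 0.05. Map2k3 lies near -2.8 in both, while the values of Mapkapk2 (-0.54 in BTEE cells and -1.98 in control cells) and of Mapk8 (-0.10 and 0.44) are apart.

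For 7 of the 9 kinases the group means spanned at least 0.5 on the log2 scale, and the symbols most like them were sought among the brighter symbols by the root mean square difference over the 8 arrays after centring each gene on its own mean. Nearest to Mapkapk2 were Pcsk7 (0.12), Ndufb2 (0.13) and Pgls (0.13). Nearest to Map2k3 were Mitd1 (0.06), Irgm1 (0.06) and 9930111J21Rik2 (0.06), of which Irgm1 encodes an interferon-inducible GTPase. Nearest to Map2k1 were the interferon-inducible gene Ifi204 (0.04), Slc44a1 (0.08) and Trip6 (0.08), and nearest to Map3k8 were Mrpl18 (0.05), Trmt2a (0.06) and Tmem199 (0.07). Mapk14 was followed most closely by Tfb2m (0.06), Tsn (0.06) and Xrcc6bp1 (0.07), and Mapk3 by Slc6a6 (0.03), Arfgef1 (0.04) and Slc2a1 (0.04). For the dim Map2k6 the nearest were Lmnb1, Tarsl2 and Snx15, at 0.13 to 0.14. None of the 9 kinases was among these nearest symbols of another.

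The rest of the cascade was described from lists of its genes. The median log2 fold changes of the kinase lists were 0.02 at 17 h and 0.01 at 6 h for other MAPK kinase kinases, -0.21 and -0.08 for other MAPK kinases, -0.06 and 0.005 for other MAP kinases, and 0 and 0.20 for other kinases that MAP kinases activate, with 0.005 and -0.005 over all symbols. Of 18 other MAPK kinase kinases, 1 rose and 3 fell with BTEE at 17 h, and 2 rose at 6 h. These were lower shares than those of all symbols in either direction, 28.5% at 17 h and 30.2% at 6 h. At 17 h Map3k1, which acts upstream of JNK, had 9.96 and 9.93 in BTEE cells and 10.63 and 10.49 in control cells and fell by 0.62 (adjusted p = 0.0040, limma). Map3k4 (-0.52) and Map3k2 (-0.37) fell and the dim Map3k13 (0.38) rose at that time. At 6 h Map3k15 (0.74, mean log2 signal 5.91) and the dim Map3k9 (0.34, mean log2 signal 4.27) rose. Map3k7, which encodes TAK1, passed at neither time (0.16, adjusted p = 0.1303, at 17 h and -0.20, adjusted p = 0.0632, at 6 h). Of 3 other MAPK kinases, 1 fell at 17 h, the Map2k7 described above, and 0 passed at 6 h with limma, where 1, Map2k4, had an unadjusted p under 0.05. Of 11 other MAP kinases, 2 fell at 17 h, Mapk6 (-0.42, adjusted p = 0.0141) and Mapk7 (-0.35, adjusted p = 0.0146), which encode ERK3 and ERK5, and 1 rose and 1 fell at 6 h. At both times this was also below the share of all symbols. These differences in share rest on few genes and were not tested. Mean log2 signals of 6 or more were found for 12 of the 18 other MAPK kinase kinases and 6 of the 11 other MAP kinases.

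Of 9 other kinases that MAP kinases activate, 7 were measured, of which 1 rose and 1 fell at each time. This was near the shares of all symbols that passed, 28.5% at 17 h and 30.2% at 6 h. The clearest of the 7 was Rps6ka2, a ribosomal S6 kinase activated by ERK. It had 5.49 and 5.53 in BTEE cells and 6.07 and 5.90 in control cells at 17 h. After 6 h of LPS, BTEE cells had 6.38 and 6.11 and control cells had 4.83 and 5.05. BTEE arrays were thus below control arrays at 17 h and above them at 6 h, the reverse of Mapkapk2. Rps6ka2 fell by 0.48 at 17 h (adjusted p = 0.0275, limma) and rose by 1.31 at 6 h (adjusted p = 0.0010), and the difference was -1.78 (adjusted p = 0.0014). Rps6ka5 (MSK1) rose by 0.41 at 17 h (adjusted p = 0.0281) and Rps6ka1 (RSK1) fell by 0.38 at 6 h (adjusted p = 0.0165).

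Of 13 adaptors and scaffolds, 3 rose and 4 fell at 17 h (median -0.12), and 1 rose and 2 fell at 6 h (median 0.05). Of all symbols, 28.5% passed at 17 h and 30.2% at 6 h in either direction. Of the brighter symbols, to which 11 of the 13 belong, 38.7% and 36.8% did. Tab1 and Tab3 encode subunits of the TAK1 complex, which stands above both JNK and p38. At 17 h Tab3 had 10.54 and 10.34 in BTEE cells and 11.40 and 11.32 in control cells and fell by 0.92 (adjusted p = 0.0016, limma), while Tab1 had 8.29 and 8.27 in BTEE cells and 7.63 and 7.43 in control cells and rose by 0.75 (adjusted p = 0.0116). The groups did not overlap in either gene at that time, which was also so for Map3k8, a gene that did not pass. Ksr1 (-0.46), a scaffold of the ERK branch, and Mapk8ip3 (-0.37), a scaffold of the JNK branch, also fell at 17 h. Ksr1 was dim, with log2 signals between 3.37 and 3.97. At 6 h Traf6, the ubiquitin ligase below Toll-like receptors, rose by 0.29 (adjusted p = 0.0450), and Spag9, another JNK scaffold, fell by 0.33 (adjusted p = 0.0164). Spag9 fell at 17 h as well, by 0.34 (adjusted p = 0.0162, limma). The difference between its effects was -0.005 (adjusted p = 0.9759).

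Of 10 genes known as transcriptional output of ERK, 9 were measured. Only 4 of the 9 reached a mean log2 signal of 6, and the lowest mean was 2.96. At 17 h 1 rose, Dusp6 (0.28, adjusted p = 0.0385, limma), which encodes an ERK phosphatase, and 2 fell, Phlda1 (-0.81, adjusted p = 0.0018) and Dusp4 (-0.27, adjusted p = 0.0361). At 6 h 0 of the 9 passed with limma, and 0 had an unadjusted p under 0.05. The median log2 fold change was -0.16 at 17 h and 0 at 6 h. Of all symbols, 28.5% passed at 17 h, near the share in this list, and 30.2% at 6 h.

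A further list held 10 mRNAs whose stability or translation p38 and MK2 are known to control. Of these, 2 rose and 6 fell at 17 h, and 3 fell at 6 h, with a median log2 fold change of -0.35 at 17 h and -0.04 at 6 h, against 0.005 and -0.005 over all symbols. In either direction 28.5% of all symbols passed at 17 h and 30.2% at 6 h, so that 3 of 10 at 6 h was at the background. Among the brighter symbols, to which 8 of the 10 belong, the shares were 38.7% and 36.8%. Il6 had 12.82 and 12.82 in BTEE cells and 13.69 and 13.59 in control cells at 17 h, and 12.38 and 12.35 in BTEE cells and 13.50 and 13.52 in control cells at 6 h. It fell by 0.82 at 17 h (adjusted p = 0.0012, limma) and by 1.15 at 6 h (adjusted p = 6.01e-04). Zfp36, which encodes the MK2 substrate tristetraprolin, had 12.07 and 12.04 in BTEE cells and 12.91 and 12.86 in control cells at 17 h and fell by 0.83 (adjusted p = 0.0014). At 6 h it had 12.38 and 12.53 in BTEE cells and 12.78 and 12.80 in control cells and fell by 0.34 (adjusted p = 0.0187). Also at 17 h, Il1b (-0.64, adjusted p = 0.0024) and the dim Cxcl1 (-0.68, adjusted p = 0.0060) fell and Csf2 (0.69, adjusted p = 0.0091) rose. Il10, with a mean log2 signal of 5.96, rose by 0.39 at 17 h (adjusted p = 0.0337) and fell by 0.55 at 6 h (adjusted p = 0.0100). The difference between its effects was 0.93 (adjusted p = 0.0052). Its value at 17 h was named after it was seen. So were the falls of Ptgs2 (-0.44, adjusted p = 0.0056) and Ier3 (-0.25, adjusted p = 0.0471) at 17 h.

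**Figure D4:**
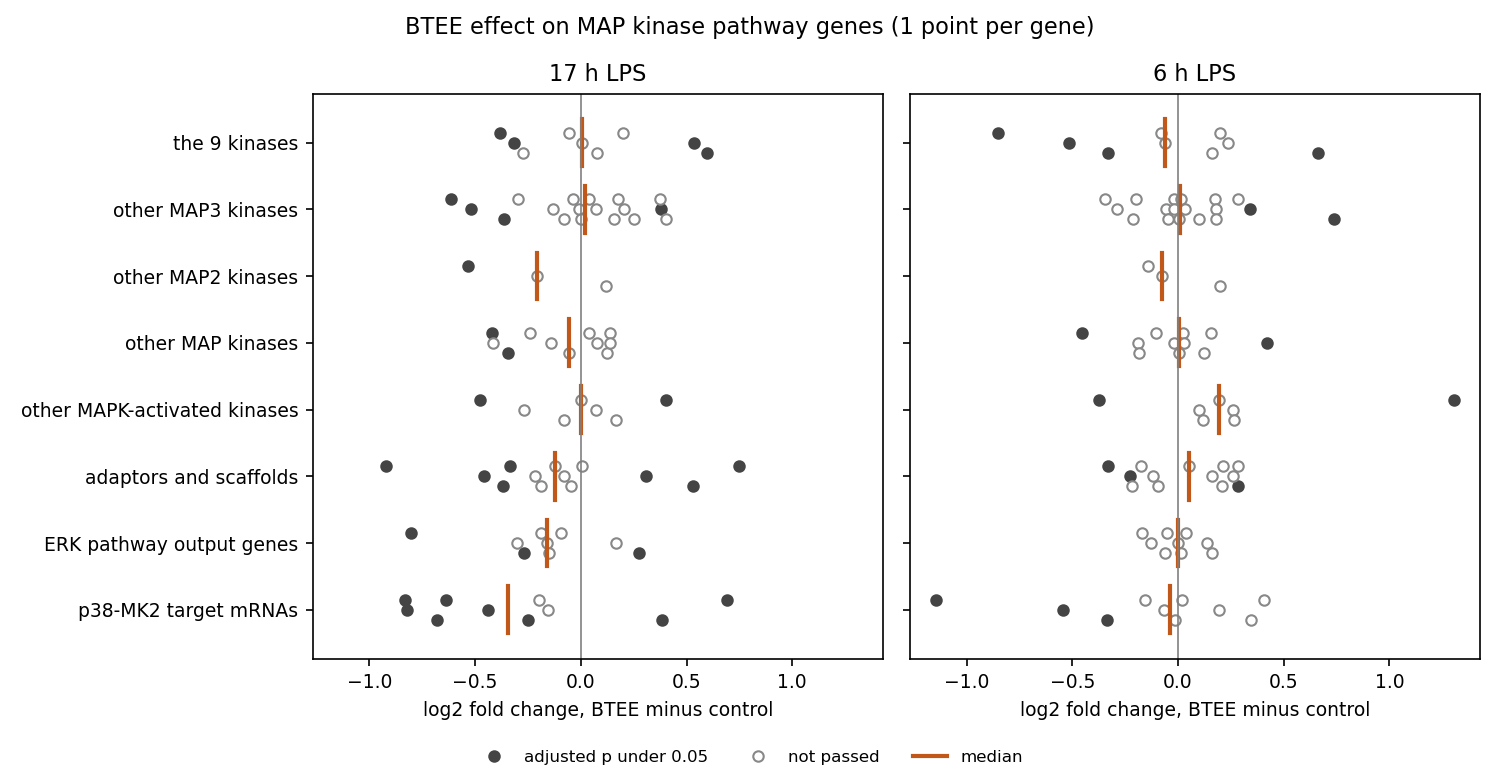
Log2 fold change of BTEE against control (horizontal axes) at 17 h and 6 h of LPS, with 1 point for each gene of the 9 kinases and of 7 lists of pathway genes; filled points have an adjusted p under 0.05 and the upright bars are list medians. The list of p38-MK2 target mRNAs has its median at -0.35 at 17 h and -0.04 at 6 h, and the 9 kinases have theirs at 0.005 and -0.06.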

How the data were processed

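SST-RMA in the Transcriptome Analysis Console (4.0.1 in the series text) was used by the authors, who deposited a log2 signal per array for 22206 probe sets. Their 2 comparison tables also hold fold changes, p-values and FDR values of their own comparisons, which were not used here; only symbols were taken from these tables, and their group averages differed by at most 0.005 from the means of the deposited log2 signals. Gene coordinates come from the NCBI RefSeq annotation of GRCm38.p6. Left out were 836 probe sets that name several symbols and 3 that name none, the brightest probe set stood for a symbol with several, and 21154 symbols were tested. Of 103 genes in 13 lists, 98 were measured. Map3k20, which did not pass in any BTEE comparison, is listed on the arrays as Zak.

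A mean for each group was fitted with limma 3.58.1 in R 4.3.3 on all 8 arrays (two-sided moderated test, 4 residual and 3.12 prior degrees of freedom), with Benjamini-Hochberg adjustment over all symbols. Standard errors and 95% confidence intervals are moderated. The fit was tested on simulated data. The number of arrays limits the precision. Named were the 9 kinases, up to 5 called genes with the largest change in each list and time, and some direct paralogs and partners. The reference genes and the 3 symbols most like each kinase with a span of at least 0.5 were also named. The other called p38-MK2 target mRNAs of 17 h and the value of Spag9 at 17 h were named after they were seen. The members and lists were chosen with earlier results of these data known. Alternatives were quantile normalization, median centring, a filter at a mean log2 signal of 6, a fit to the 4 arrays of a comparison, a replicate block, a robust prior with a trend, the mean of all probe sets, the DEG rule, and leaving out each array. Raw intensities were not used here, so another background correction was not run.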

Additional observations from a re-analysis of the deposited data

Results flagged for a closer look

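For 2 of the 9 kinases the BTEE effects at 17 h and 6 h differed in limma's test of the difference, which 31.4% of all symbols passed. Mapkapk2 had a difference of 1.45 on the log2 scale (adjusted p = 8.52e-04), with an effect of 0.60 at 17 h and -0.85 at 6 h. Mapk8 had a difference of -0.54 (adjusted p = 0.0077), with an effect of -0.38 at 17 h and 0.16 at 6 h, the second of which did not pass on its own. With 2 arrays per group, single arrays could not be tested as outliers.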

How the results depend on the processing

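Of 706 log2 fold changes of the kinases under the alternatives, 664 kept their direction and their side of the threshold, 21 lost it, 9 passed where they had not and 12 changed sign, all of the 12 being values that had not passed. With the DEG rule 1 kinase was called at 17 h, 2 at 6 h, 1 for the difference, 4 for the times in BTEE cells and 5 in control cells, in place of 4, 4, 2, 6 and 7. Of all symbols it called 1859, 2204, 4729, 5324 and 6273 in these comparisons, in place of 6025, 6380, 6651, 10066 and 11054. Without 1 array, 2 to 4 kinases and 2938 to 5746 symbols were called at 17 h, and 2 to 4 kinases and 3555 to 6025 symbols at 6 h. Quantile normalization turned Mapk14 at 17 h (-0.035) and the differences of Map2k3 (-0.0181) and Mapk3 (-0.0053). Leaving out 1 array gave -0.085 to 0.095 for Mapk14 and -0.005 to 0.155 for Map2k2 at 17 h, -0.145 to 0.025 for Map2k2 at 6 h, and differences of -0.015 to 0.045 for Map2k3, -0.01 to 0.06 for Mapk3 and -0.31 to 0.06 for Map2k6. With the filter on mean signal, which left fewer symbols to test, Map2k1 passed at 17 h (adjusted p = 0.0138) and Mapk14 (0.0335) and Mapk8 (0.0419) at 6 h. With the 4 arrays of 17 h alone, Map2k6 did not pass (adjusted p = 0.0638). With the replicate block, 4 kinases were called at 17 h, 4 at 6 h, 2 for the difference, 6 for the times in BTEE cells and 7 in control cells, as without it. Deviations of same-numbered arrays correlated with r between -0.0011 and 0.0202, so no pairing by number was seen in the signals. Whether same-numbered arrays shared a culture or a run cannot be told from these correlations. The cause of these changes was not tested.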
